A study of Homo sapiens with 4 samples.

Results

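Forkhead (FOX), SOX and Krüppel-like (KLF) genes were followed in H1299 cells, which come from a human lung carcinoma of the non-small cell type and make no p53 of their own. The line carries a tet-on construct, stably held, that makes wild-type mouse p53 when doxycycline is given. The genes were taken by symbol from the platform annotation, as FOX genes of subfamilies A to S except FOXM1, SOX genes except SOX2, and KLF genes, each read from its brightest probe set that names a single gene. This gave 75 of 18417 measured genes, 39 FOX, 18 SOX and 18 KLF, and 2 of them, FOXN3-AS2 and KLF3-AS1, are antisense RNAs named after a family member. The induced cells had been kept in 0.5 µg/mL doxycycline for 24 hours, and the uninduced cells were the same stable line before the drug was added; both were grown in DMEM with tet-free serum. There were 2 arrays of each group, which the labels call technical replicates, so the p-values below measure only the spread between these arrays. No cells without the construct received the drug, so an effect of doxycycline and an effect of p53 cannot be told apart here, and whether the line is 1 clone is not given in the sources used here.

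Forkhead proteins bind DNA through a winged helix, SOX proteins through a high mobility group box that bends the DNA, and KLF proteins through zinc fingers at their end that recognise GC-rich and CACCC sequences. Members of each family act as activators or as repressors, and many set the identity or the proliferation of a tissue: FOXA and FOXF factors in lung and gut endoderm and mesenchyme, SOX9 in cartilage and in the growing tips of lung airways, KLF2 and KLF4 in endothelium and epithelium. FOXO factors are held out of the nucleus by AKT phosphorylation and switch on stress and quiescence genes. p53 is itself a transcription factor, which binds DNA as a tetramer over a pair of half-sites.

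The promoters of 4 members that changed at least 2-fold are shown first, 2 that rose (FOXP2 and FOXK1) and 2 that fell (FOXD1 and KLF7). They were taken because they differ in the short motifs they hold. In base composition the promoters of FOXP2 and FOXK1 differ widely, and those of FOXD1 and KLF7 are close. Each is the 250 bases before the RefSeq start on GRCh38.p14, written 5′ to 3′ along the gene's strand. Capitals mark matches on either strand to the p53 half-site consensus, the GC box GGGCGG or the CACCC box CACCC, and no 2 of the marked matches overlap.
FOXP2, chr7:114414565-114414814, plus strand: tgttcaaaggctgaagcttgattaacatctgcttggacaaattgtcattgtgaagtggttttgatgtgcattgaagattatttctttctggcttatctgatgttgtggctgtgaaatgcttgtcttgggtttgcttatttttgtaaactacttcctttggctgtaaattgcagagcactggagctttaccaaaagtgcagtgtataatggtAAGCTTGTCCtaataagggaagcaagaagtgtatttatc
FOXK1, chr7:4682045-4682294, plus strand: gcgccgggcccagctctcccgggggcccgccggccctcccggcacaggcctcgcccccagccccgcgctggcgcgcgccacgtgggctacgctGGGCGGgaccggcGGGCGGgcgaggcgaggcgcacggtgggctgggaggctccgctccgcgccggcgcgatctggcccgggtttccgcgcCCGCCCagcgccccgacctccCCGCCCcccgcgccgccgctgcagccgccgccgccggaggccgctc
FOXD1, chr5:73448778-73449027, minus strand: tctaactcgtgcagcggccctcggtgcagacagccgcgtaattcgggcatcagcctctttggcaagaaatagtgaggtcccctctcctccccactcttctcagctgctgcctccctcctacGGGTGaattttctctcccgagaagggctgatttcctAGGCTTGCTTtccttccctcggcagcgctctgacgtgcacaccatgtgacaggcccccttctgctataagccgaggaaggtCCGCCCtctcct
KLF7, chr2:207165949-207166198, minus strand: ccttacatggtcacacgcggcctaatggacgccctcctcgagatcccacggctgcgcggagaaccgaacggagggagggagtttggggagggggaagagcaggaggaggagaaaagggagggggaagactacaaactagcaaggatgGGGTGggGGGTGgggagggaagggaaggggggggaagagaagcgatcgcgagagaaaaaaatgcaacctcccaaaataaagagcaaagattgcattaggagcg
The FOXP2 window holds 37.6% G and C, with 1 match to the p53 half-site (bases -39 to -30, counted back from the start) and none to the GC or CACCC box. The FOXK1 window holds 85.6% G and C and 4 GC boxes, and no p53 half-site. The FOXD1 window, with 58.8% G and C, holds 1 p53 half-site (bases -93 to -84), 1 CACCC box and 1 GC box. The KLF7 window, with 58.0% G and C, holds 2 CACCC boxes. The windows of FOXJ2 and KLF6, which also changed at least 2-fold, are not shown and hold no p53 half-site. Of 54 members with a promoter in the RefSeq table, 30 were forkhead genes. A match to the p53 half-site was held by 4 of the 54 (7.41%), against 5.53% of 27305 promoters of the same length. These 4 were all forkhead genes: FOXP2, which rose, FOXP1 and FOXD1, which fell, and FOXN1, which did not pass the test below. The GC box was found in 68.5% of the members' windows and in 42.3% of all, and the members' windows were richer in G and C, with a median of 67.0% against 58.0%. The CACCC box was found in 55.6% of the members' windows and 53.7% of all, the CCAAT box CCAAT in 31.5% and 33.0%, the forkhead core TGTTTAC in 1.85% and 2.98%, and the SOX core ACAAAG in 9.26% and 13.7%. These are matches of letters in a short window and describe no bound site.

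The values are log2 expression levels after RMA, which makes the arrays' intensity distributions equal, so a change shared by all transcripts would be hidden, and fewer cells of a type and less RNA per cell cannot be told apart. The p53 targets CDKN1A and MDM2 were 10.8-fold and 7.39-fold higher on the induced arrays, in the direction of the labels. The level of the mouse p53 transcript was not analysed here. Of the carcinoma line markers, VIM (12.32 induced, 12.72 uninduced), KRT18 (11.04 and 11.135), KRT8 (10.63 and 9.485) and CDH2 (10.02 and 10.365) were bright, whereas CDH1 (5.88 and 5.885) and EPCAM (5.50 and 5.445) were dim in both groups. The 11 blood, fibroblast and endothelial markers measured had median levels of 6.375 induced and 6.41 uninduced, which serves as a guide to the array's background since no detection call was used. Single markers ran from 4.065 (DCN) to 7.97 (COL1A1) induced and from 3.98 (PTPRC) to 7.955 (COL1A1) uninduced. The guide is therefore rough, and members above it can also lie near the background. Their summed level ranged over arrays from 23.17 to 23.71 induced and 22.94 to 23.38 uninduced for 4 blood markers, and from 43.89 to 44.75 induced and 43.79 to 43.94 uninduced for 7 fibroblast and endothelial markers. Of 7 lung epithelial markers, all under the median level of all genes, 2 passed the test described below. This share was 28.6%, against 23.5% of all genes under that level and 45.1% of all genes. The 2 were SCGB1A1, which rose 4.08-fold, and SFTPC, which rose 1.23-fold. The other 5 did not pass, with log2 fold changes from -0.09 (NKX2-1) to 0.145 (AGER). The list's summed level was 49.87 and 48.56 on the induced arrays, against 47.0 and 46.31 on the uninduced arrays. SCGB1A1 had the largest log2 fold change of the list, 2.03. The part of these markers in the results below was not tested. Uninduced levels were under that guide for 10 members and induced levels for 8, and the folds of such genes depend on the array's background.

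Of the 75 genes, 25 passed limma's test of induced against uninduced arrays, with an adjusted p (Benjamini-Hochberg, over all genes) under 0.05, a share of 33.3% against 45.1% of all genes tested. Of these, 15 rose (20.0%, against 20.6% of all genes) and 10 fell (13.3%, against 24.6%). At least 2-fold changes were found for 7 (9.33%, against 13.2%): the 3 that rose were FOXP2, FOXJ2 and FOXK1 (6.48% of all genes rose so far), and the 4 that fell were FOXD1, KLF6, KLF7 and KLF10 (6.77% of all genes). The median log2 fold change of the members was 0.055, against 0.0 for all genes, and the median absolute change was 0.145 against 0.23. The share that passed varied with the level of the probe set. Among 41 members under the median level of all genes, 24.4% passed, against 23.5% of all genes under it, and among 34 members at or above it 44.1% passed, against 66.7%. The 4 arrays did not overlap between groups for 41 members (54.7%), against 66.8% of all genes.

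**Figure D1:**
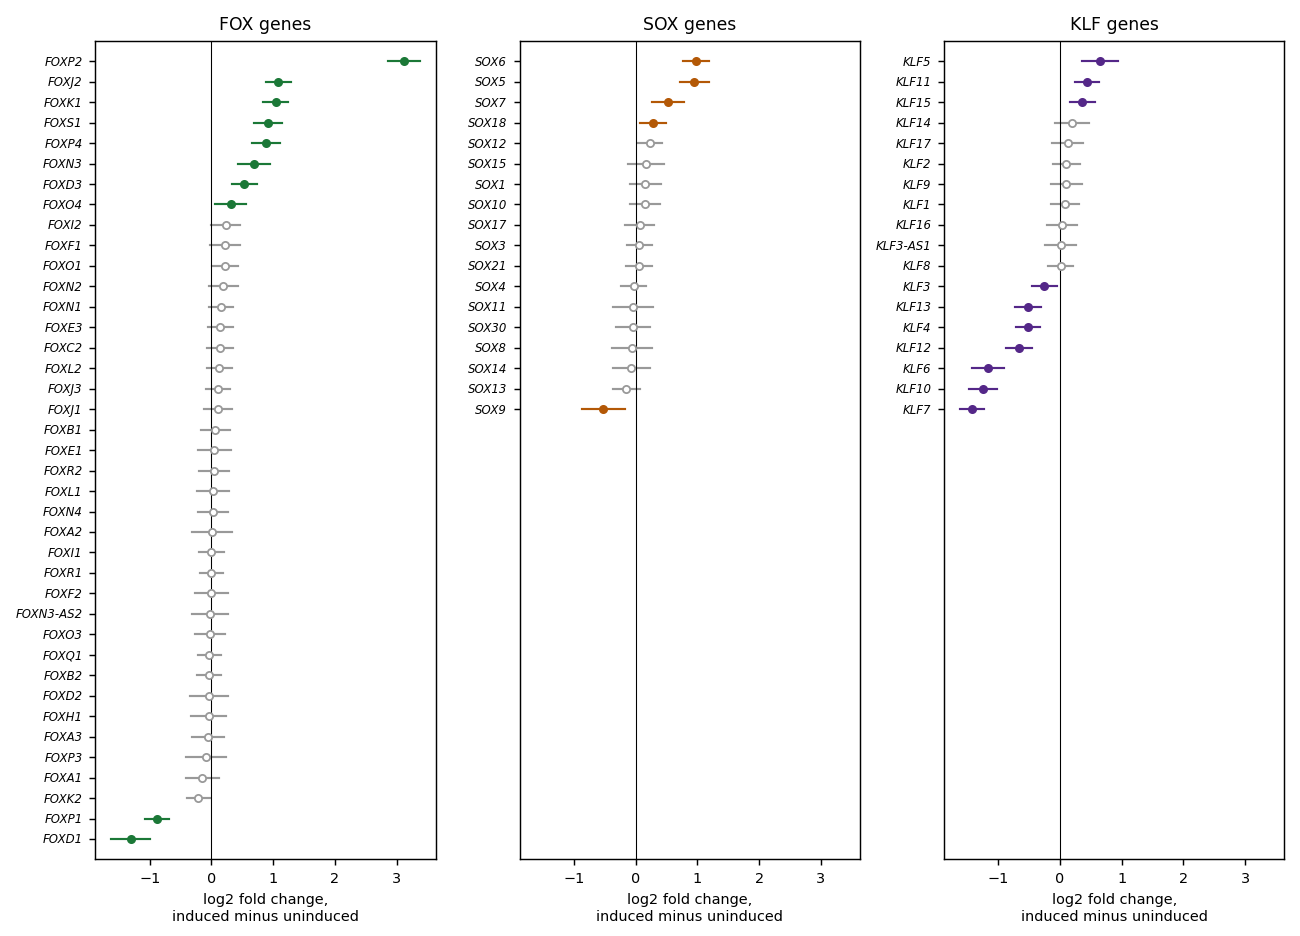
Log2 fold change (induced minus uninduced) of all 75 members by family, with 95% confidence intervals from limma (2 arrays in each group); filled points passed the test at an adjusted p under 0.05 and open grey points did not. FOXP2 stands at 3.12, FOXD1 at -1.31 and KLF7 at -1.425, while most FOX and SOX genes lie within the interval from -0.25 to 0.25.

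Of the 39 FOX genes, 8 rose (20.5%, against 20.6% of all genes) and 2 fell (5.13%, against 24.6%), and the change of FOXP2 was the largest among all 75 members. FOXP2, a repressor best known for its part in speech and also active in lung epithelium, had 8.48 and 8.72 log2 units on the induced arrays, against 5.39 and 5.57 on the uninduced arrays. Both induced values lay far above both uninduced ones. The gene rose 8.69-fold (log2 fold change 3.12, SE 0.11, 95% interval 2.85 to 3.39, adjusted p = 1.25e-06 in limma's test). Its uninduced level was under the marker guide of 6.41, so the size of this rise depends on the array's background. The next measured coding gene after it in the RefSeq order, MDFIC, also rose (log2 fold change 1.305, SE 0.081). MDFIC encodes a protein with a MyoD family inhibitor domain. PPP1R3A, on the other side of FOXP2, had a log2 fold change of 0.085 (SE 0.090).

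The other FOXP genes moved in different directions. FOXP proteins bind DNA as dimers, and FOXP1, FOXP2 and FOXP4 can pair with one another. FOXP4 had 9.39 and 9.52 log2 units induced, against 8.65 and 8.5 uninduced, and rose 1.84-fold (log2 fold change 0.88, SE 0.096, adjusted p = 0.000191). FOXP1, which has roles in B cells, heart and lung, had 7.21 and 7.28 induced, against 8.13 and 8.12 uninduced, and fell by 0.88 on the log2 scale (SE 0.083, adjusted p = 8.84e-05). FOXP3, the factor of regulatory T cells, had overlapping values and a log2 fold change of -0.085 (95% interval -0.41 to 0.24). The 95% intervals of FOXP1 (-1.07 to -0.69), FOXP2 and FOXP4 (0.65 to 1.11) were apart from each other.

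**Figure D2:**
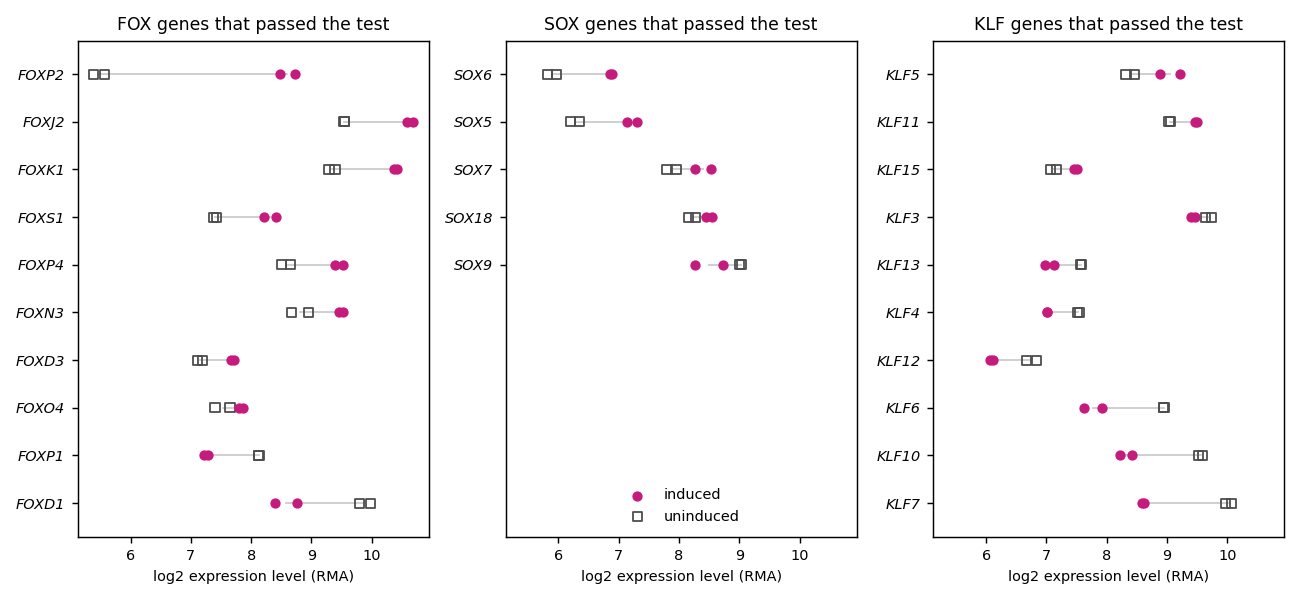
Log2 expression level (RMA) of the 25 genes that passed the test on each of the 4 arrays, with filled circles for the 2 induced and open squares for the 2 uninduced arrays and a grey line joining the group means. FOXP2 shows the widest gap between the groups, and FOXO4, SOX18 and KLF3 the narrowest.

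FOXJ2 and FOXK1 rose by similar amounts. FOXJ2, an activator expressed in many tissues, had 10.68 and 10.58 log2 units induced, against 9.54 and 9.55 uninduced, a 2.12-fold rise (log2 fold change 1.085, SE 0.085, adjusted p = 3.50e-05). FOXK1, a repressor of starvation and autophagy genes, had 10.36 and 10.41 induced, against 9.39 and 9.29 uninduced, a 2.06-fold rise (log2 fold change 1.045, SE 0.086, adjusted p = 4.47e-05). Their nearest relatives did not move with them: FOXJ3 had a log2 fold change of 0.11 (95% interval -0.082 to 0.30) and FOXK2 one of -0.21 (-0.40 to -0.018, adjusted p = 0.0753). FOXJ1, the factor of motile cilia, had one of 0.10 (-0.13 to 0.33). FOXS1 rose 1.89-fold (8.22 and 8.41 induced, against 7.37 and 7.43 uninduced), FOXN3, a repressor linked to cell cycle checkpoints, 1.61-fold (9.46 and 9.53, against 8.67 and 8.95) and FOXD3, a neural crest factor, 1.45-fold (7.66 and 7.71, against 7.19 and 7.11). The groups did not overlap for these 3 genes, with adjusted p-values of 0.000157, 0.0015 and 0.00131 in limma's test, but the FOXN3 call ended without either induced array (adjusted p = 0.0689 without array 1 and 0.0796 without array 2).

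FOXD1 was the forkhead gene that fell most. FOXD1, known from kidney stroma, had 8.76 and 8.39 log2 units on the induced arrays, against 9.98 and 9.79 on the uninduced arrays. It fell by 1.31 on the log2 scale, which is a 2.48-fold lower level (SE 0.14, adjusted p = 0.000147 in limma's test). The induced arrays differed by more than the uninduced ones, with SDs of 0.26 and 0.13, and the difference ranged from -1.495 to -1.125 over the alternative settings. On one side of it in the RefSeq order the next 2 measured coding genes, BTF3 (log2 fold change 0.425, SE 0.085) and ANKRA2 (3.665, SE 0.18), rose. On the other side TMEM171 fell by 0.41 (SE 0.083) and TMEM174 had a log2 fold change of 0.125 (SE 0.098).

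FOXO genes, whose activity is set mainly at the protein level, changed little. FOXO4 had 7.87 and 7.80 log2 units induced, against 7.65 and 7.40 uninduced, and rose 1.24-fold (adjusted p = 0.0474), a call that ended whichever array was left out (adjusted p from 0.0656 to 0.300). FOXO1 had 9.38 and 9.24 induced, against 9.12 and 9.07 uninduced, with a log2 fold change of 0.215 (95% interval 0.0043 to 0.43, adjusted p = 0.0936). FOXO3 had overlapping values on the row that names it alone, 7.59 and 7.35 induced, against 7.48 and 7.52 uninduced, and a log2 fold change of -0.030 (-0.27 to 0.21). A row that the annotation gives to both FOXO3 and FOXO3B had 9.78 and 9.84 induced, against 10.12 and 10.01 uninduced, without overlap. Its difference was -0.255 on the log2 scale, with an SE of 0.088 and an adjusted p of 0.0906 by limma over all rows, and which of the genes it reads cannot be told. All 3 FOXA genes, pioneer factors of endoderm and its epithelia, had overlapping values, with log2 fold changes from -0.15 for FOXA1 to 0.010 for FOXA2; 0 passed limma's test and 0 had an unadjusted p under 0.05. FOXF1 and FOXF2, of lung and gut mesenchyme, had log2 fold changes of 0.22 (95% interval -0.025 to 0.46) and -0.005 (-0.27 to 0.26).

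Of the 18 SOX genes, 4 rose (22.2%, against 20.6% of all genes) and 1 fell (5.56%, against 24.6%), none by 2-fold. The largest rises were those of SOX5 and SOX6, SOX genes of group D, which lack an activation domain of their own and assist SOX9 in cartilage. SOX6 had 6.89 and 6.85 log2 units on the induced arrays, against 5.82 and 5.97 on the uninduced arrays, and rose 1.97-fold (SE 0.090, adjusted p = 8.24e-05 in limma's test). SOX5 had 7.14 and 7.31 induced, against 6.20 and 6.35 uninduced, and rose 1.93-fold (log2 fold change 0.95, SE 0.10, adjusted p = 0.00016). The groups did not overlap for either gene, and both uninduced means were under the marker guide of 6.41. The other group D gene, SOX13, had a log2 fold change of -0.15 (95% interval -0.36 to 0.064).

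SOX9 itself was lower on the induced arrays, with an uneven pair. It had 8.73 and 8.26 log2 units induced, against 9.0 and 9.04 uninduced, and fell by 0.525 on the log2 scale (SE 0.15, adjusted p = 0.0222 in limma's test). The fall was 0.76 without induced array 1 and 0.29 without induced array 2. The call ended without induced array 2 (adjusted p = 0.0552), without uninduced array 1 (0.231) and without uninduced array 2 (0.264). SOX7 and SOX18, which act in endothelial development, rose 1.44-fold (8.53 and 8.27 induced, against 7.95 and 7.80 uninduced) and 1.21-fold (8.55 and 8.44, against 8.27 and 8.16). The SOX7 call ended without induced array 1 or either uninduced array, with adjusted p-values up to 0.150, and the SOX18 call ended whichever array was left out (0.0749 to 0.255).

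The remaining SOX genes did not pass. SOX4 and SOX11, group C activators of progenitor cells, had log2 fold changes of -0.035 (95% interval -0.24 to 0.17) and -0.040 (-0.36 to 0.28), and SOX12, of the same group, had 8.02 and 7.95 induced, against 7.76 and 7.76 uninduced, with a log2 fold change of 0.225 (adjusted p = 0.0621). SOX3, SOX10, SOX15 and SOX1 had log2 fold changes of 0.060, 0.145, 0.16 and 0.155. Of the 4 SOX genes of group B, 0 passed limma's test and 0 had an unadjusted p under 0.05.

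Of the 18 KLF genes, 7 fell (38.9%, against 24.6% of all genes), 3 rose (16.7%, against 20.6%) and 8 did not pass. The 3 largest falls were at least 2-fold. KLF7, an activator of neuronal and metabolic genes, had 8.58 and 8.61 log2 units on the induced arrays, against 10.07 and 9.97 on the uninduced arrays, and fell by 1.425 on the log2 scale, a 2.69-fold lower level (SE 0.085, adjusted p = 9.36e-06 in limma's test). KLF10, an early response gene of TGF-beta and a Sin3-binding repressor, had 8.22 and 8.41 induced, against 9.52 and 9.59 uninduced, and was 2.36-fold lower (SE 0.097 on the log2 scale, adjusted p = 3.46e-05). KLF6, an activator of injury and growth control genes, had 7.63 and 7.92 induced, against 8.94 and 8.95 uninduced, and was 2.25-fold lower (SE 0.11, adjusted p = 9.21e-05). In each of the 3 genes both induced arrays lay more than a log2 unit below both uninduced arrays.

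The smaller falls crossed the functional groups of the family. KLF12, a CtBP-binding repressor, had 6.11 and 6.06 log2 units induced, against 6.83 and 6.67 uninduced, and fell by 0.665 (SE 0.092, adjusted p = 0.000661), to an induced level under the marker guide. KLF4, which acts in epithelial differentiation and in pluripotency, had 7.01 and 7.01 induced, against 7.55 and 7.51 uninduced, and fell by 0.52 (SE 0.081, adjusted p = 0.00126). KLF13, a Sin3-binding repressor, had 7.13 and 6.98 induced, against 7.56 and 7.58 uninduced, and fell by 0.515 (SE 0.090, adjusted p = 0.00224). Its second, dimmer probe set had 6.39 and 6.39 induced, against 6.57 and 6.32 uninduced, with a log2 fold change of -0.055 (SE 0.11), so the 2 probe sets differed, and the mean of both fell by 0.285 (adjusted p = 0.0325). The KLF13 call ended without either uninduced array (0.0641 and 0.0702). KLF3, another CtBP-binding repressor, fell by 0.255 (9.39 and 9.46 induced, against 9.63 and 9.73 uninduced, adjusted p = 0.0471), a call that ended whichever array was left out (0.0870 to 0.258).

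KLF5, KLF11 and KLF15 rose. KLF5, which sustains proliferation of intestinal crypt cells, had 9.21 and 8.88 log2 units induced, against 8.46 and 8.32 uninduced, a 1.57-fold rise (SE 0.12 on the log2 scale, adjusted p = 0.0034). KLF11, a Sin3-binding repressor close to KLF10, had 9.50 and 9.46 induced, against 9.06 and 9.03 uninduced, a 1.35-fold rise (SE 0.082, adjusted p = 0.00325). KLF10 and KLF11 therefore moved in opposite directions, with 95% intervals of -1.47 to -1.01 and 0.24 to 0.63. KLF15, an inducer of gluconeogenic genes, had 7.5 and 7.46 induced, against 7.07 and 7.17 uninduced, a 1.28-fold rise (adjusted p = 0.0102). These calls were less steady than those of the large falls. The KLF5 call ended without induced array 1 or either uninduced array, with adjusted p-values up to 0.125, the KLF11 call without either uninduced array (up to 0.0659) and the KLF15 call whichever array was left out (0.0564 to 0.116).

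KLF5 and KLF12 are next to each other among the measured coding genes of chromosome 13, and moved in opposite directions by similar amounts, 0.655 and -0.665. The other members that stood next to each other, FOXE3 with FOXD2, FOXC2 with FOXL1 and FOXQ1 with FOXF2, did not pass. Around the 25 genes that passed, the nearest 2 measured coding genes on each side came to 96 distinct genes that are not themselves members, of which 49 (51%) passed the test, against 45.1% of all genes.

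KLF2 and KLF16, both bright, had log2 fold changes of 0.105 (95% interval -0.11 to 0.32) and 0.040 (-0.20 to 0.28). KLF1, KLF8, KLF9, KLF14 and KLF17 had log2 fold changes from 0.010 to 0.20, and 0 of them passed. The Sp factors, which share the KLF zinc finger type, were taken from a list outside the family rule. Of 8 measured, 2 fell (25.0%, against 24.6% of all genes), SP4 by 0.95 on the log2 scale (SE 0.081) and SP3 by 0.345 (SE 0.084), and 0 rose. SP1 had a log2 fold change of 0.025 (SE 0.083).

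**Figure D3:**
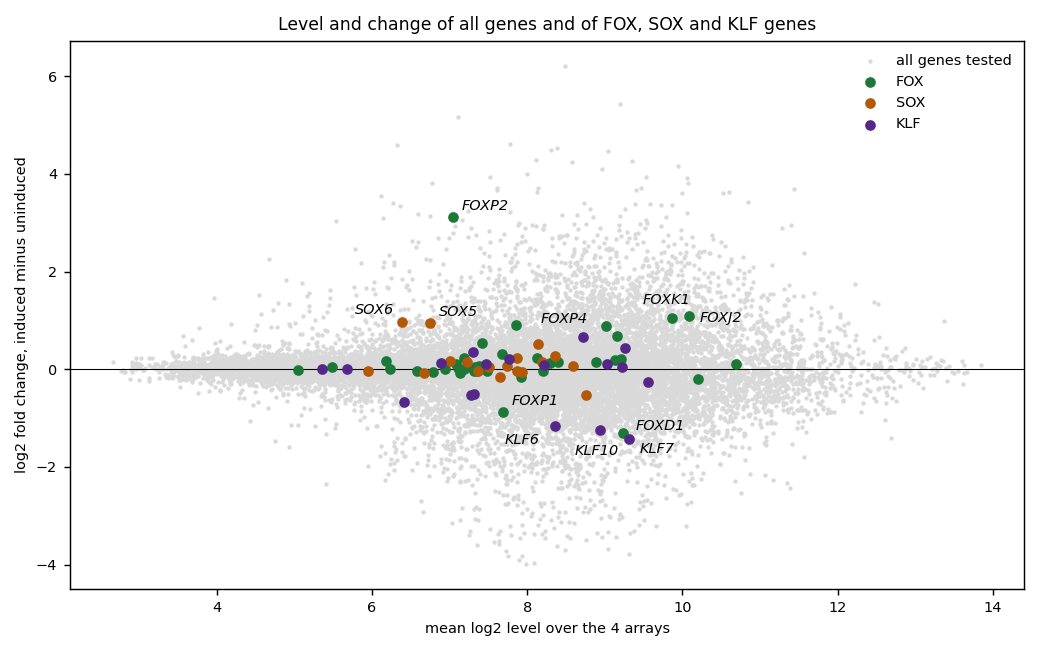
Log2 fold change (induced minus uninduced) against the mean log2 level over the 4 arrays for all 18417 genes (grey) and for FOX, SOX and KLF genes (coloured), with selected members labelled. FOXP2 lies at 3.12, with few grey points above it at its level, and most members lie near 0.

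Genes that work with the 3 families were described by 7 further lists. Proteins that bind or degrade KLF factors passed in 12 of 16 (75.0%), 5 higher and 7 lower. All 16 lie at or above the median level of all genes, where 66.7% of all genes passed, against 45.1% over all levels. The acetyltransferase gene KAT2B rose 4.58-fold (log2 fold change 2.195, SE 0.091) and FBXW7, a ubiquitin ligase subunit, 3.24-fold, while SIN3A, the scaffold of the Sin3 corepressor, fell by 1.05 (SE 0.10). Of 14 controllers of FOXO proteins, all at or above that level too, 10 passed (71.4%), 4 higher and 6 lower: PIK3R1, the regulatory subunit of phosphoinositide 3-kinase, rose 3.64-fold and SKP2, a ubiquitin ligase subunit, fell by 1.47 (SE 0.089). FOXO target genes passed in 10 of 23, a share of 43.5% against 45.1% of all genes. Of them 7 were higher (30.4%, against 20.6% of all genes) and 3 lower (13.0%, against 24.6%). The list had a median log2 fold change of 0.10, against 0.0 for all genes. BCL2L11, which encodes the proapoptotic protein BIM, rose 2.90-fold and FBXO32, a muscle ubiquitin ligase, 2.55-fold, whereas CDKN1B, the inhibitor p27, had a log2 fold change of -0.12 (SE 0.088). The 3 that fell were CAT (log2 fold change -0.60, SE 0.084), SOD2 (-0.485, SE 0.10) and SESN3 (-0.375, SE 0.094).

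Of 12 TGF-beta signalling genes, the pathway of KLF10 and KLF11, 4 rose (33.3%, against 20.6% of all genes) and 5 fell (41.7%, against 24.6%), and 10 of the 12 lie at or above the median level of all genes, where 66.7% of all genes passed. The receptor gene TGFBR1 rose 4.71-fold, the SMAD repressor gene SKIL fell by 1.82 (SE 0.13) and the other receptor gene, TGFBR2, fell by 1.065 (SE 0.084). Of 11 WNT and beta-catenin effectors, which SOX factors modulate, 3 rose (27.3%) and 2 fell (18.2%), led by the kinase gene GSK3B at 2.44-fold and by LEF1, which fell by 0.595 (SE 0.087). Of 7 endothelial targets of KLF2 and KLF4, 2 rose (28.6%) and 1 fell (14.3%): ADM, a vasodilator peptide gene, rose 1.76-fold and S1PR1, a sphingosine phosphate receptor gene, fell by 1.285 (SE 0.095). Of 11 cartilage targets of SOX9, 2 lie at or above the median level. In this list 0 passed limma's test, against 45.1% of all genes and 23.5% of those under the median level, and 0 had an unadjusted p under 0.05, with log2 fold changes from -0.04 to 0.215 (MATN1), and COL2A1 at 0.205.

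**Figure D4:**
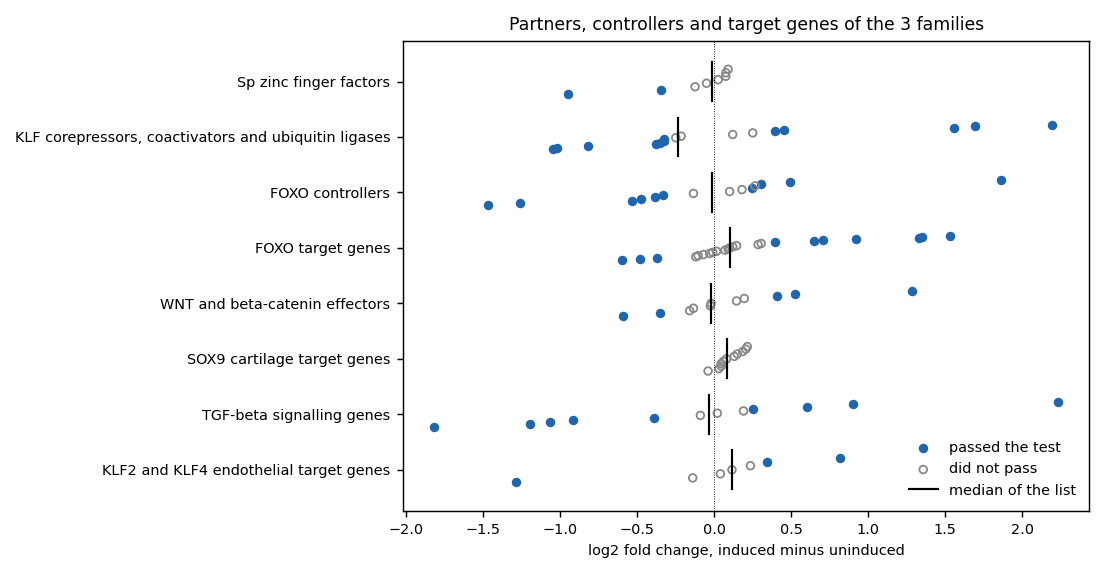
Log2 fold change (induced minus uninduced) of the measured genes of 8 lists of partners, controllers and targets; filled points passed the test at an adjusted p under 0.05, open points did not, and black bars are list medians. The KLF-binding proteins spread from -1.05 to 2.195 and the SOX9 cartilage targets stay between -0.04 and 0.215.

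The calls differed in how well they held. Of the 25 genes that passed, 15 passed under each of the alternative settings run, 8 that rose (FOXP2, FOXJ2, FOXK1, FOXS1, FOXP4, FOXD3, SOX5 and SOX6) and 7 that fell (FOXD1, FOXP1, KLF4, KLF6, KLF7, KLF10 and KLF12). FOXP2, KLF12, SOX5 and SOX6 were not part of the setting without dim genes. The other 10 lost the call in at least 1 setting that left out an array, and the sign of none of the 25 changed.

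**Figure D5:**
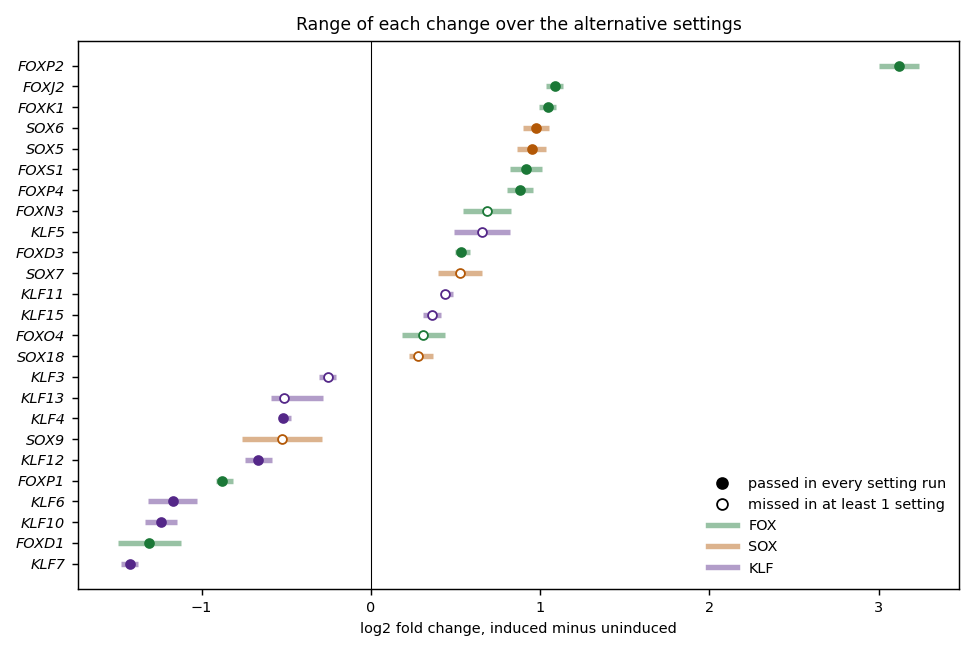
Log2 fold change (induced minus uninduced) of the 25 genes that passed the test (points) and its range over the alternative settings (bars), coloured by family; filled points passed in every setting run. The FOXP2 range was 3.0 to 3.24, and no bar crosses 0.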

How the data were processed

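Total RNA was hybridised as biotin-labelled single-stranded cDNA to Affymetrix whole-transcript arrays, per the labels' protocols. The authors deposited log2 expression levels made with Affymetrix Expression Console and RMA, per the submitters' processing notes, whose versions are not stated there. The deposited log2 values, to 2 decimals, ran from 2.26 to 14.3, with array medians of 7.26 and 7.29 induced and 7.33 and 7.32 uninduced. The number of arrays limits the precision.

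Of 33297 rows, 19460 carried 1 gene symbol. The brightest row of each symbol gave 18417 genes. The family symbols had 76 such rows, 2 of them for KLF13, and 8 rows shared by several forkhead genes were left out of the counts. All 75 symbols matched RefSeq by gene ID. Induced arrays were tested against uninduced arrays over all genes in R 4.3.3 with limma 3.58.1 (lmFit and eBayes, two-sided, Benjamini-Hochberg). The fit had 2 residual degrees of freedom, and 7.20 with the prior. The code was tested on simulated data. Promoters came from RefSeq on GRCh38.p14 and were searched with Python 3.11.15.

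The members and lists were chosen with earlier results of these data known. The text names members that changed at least 2-fold, the 8 of each family with the largest change, the 5 of each family with the highest mean level, and the 2 of each list with the largest change. FOXD3, the FOXO, FOXA and FOXF genes, other members, the markers, the neighbours and SIN3A, CDKN1B, TGFBR2 and SP1 were named after their values were seen. So were CAT, SOD2 and SESN3. Alternatives tried were quantile normalization again, median centring, no genes under the 40th percentile of level, the mean of probe sets, all rows, an intensity trend with a robust prior, treat against a fold of 1.2, a replicate block and leaving out each array.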

Additional observations from a re-analysis of the deposited data

How the results depend on the processing

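All 12 alternatives were planned. With limma's treat against a fold of 1.2, 5479 of all genes passed, SOX genes passed in 2 higher and 0 lower, KLF genes in 1 higher, and genes of the related lists in 31 (51 in the main test). SOX9, the single SOX gene that fell, also missed the threshold with all rows of the table tested and with the replicate block, which left 0 SOX genes lower (unadjusted p = 0.0263 and 0.0491 for SOX9, and 0.06 with treat); the block left 7820 of all genes called and also ended the FOXO4 call and no other member's. Same-numbered arrays deviated together (r = 0.225 across genes, with 2 numbers), but the labels do not say that a number marks a shared batch. Leaving out 1 array at a time, which assumes that the lone array of a group varies like the other group, gave 4959 to 6904 genes called of all, 9 to 13 members higher, 2 to 3 SOX genes higher, 0 to 1 SOX genes lower, 0 to 3 KLF genes higher and 29 to 46 genes of the related lists, with 5043 and 4959 of all genes and 0 KLF genes higher without uninduced array 1 and 2, and 9 members higher without induced array 1 or either uninduced array. Members called at 2-fold stayed between 7 and 9. Of the values of single genes followed, 376 kept their side of the threshold, 45 lost the call and 5 gained one (FOXK2 and SOX12); 0 changed direction while called. Centring each array on its median moved the median of all genes by 0.05 and ended the KLF3 call. It also raised the members called higher from 15 to 18 and the FOX genes called higher from 8 to 10. The FOX genes that gained a call there were not among the single genes followed. With all rows tested, the FOXO4, KLF3 and SOX18 calls ended too. Low signal limits the folds of FOXP2, SOX5, SOX6 and KLF12, each with a group mean under the marker guide. It may also limit members above the guide but within the range of the single markers.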
